A study of Mus musculus with 12 samples.

Results

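The genes described here encode the RNA polymerases and their general transcription factors, 70 genes of 18193 measured, in TBV2 (129/SvP) mouse embryonic stem cells with and without added L-proline. They were taken by name, as every gene whose platform symbol begins with Polr1, Polr2, Polr3, Gtf2, Gtf3 or Taf and a number, and the probe set of each gene was chosen by its signal, as the one with the highest mean over the 12 arrays. That choice used the mean over both groups and not the difference between them. The members' mean log2 signals lay between 4.06 for Taf7l2 and 12.24 for Polr2b, with a median of 9.88. Probe sets that carry a second gene symbol were not used, which left Taf9, Polr2k and Polr2l out.

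The cells are a wild-type line of strain 129/SvP, seeded sparsely on gelatin-coated plates free of feeder cells. Incubation lasted 5 days, and the medium held leukemia inhibitory factor (LIF) but no non-essential amino acids. The control group had no addition and the proline group had 500 µM L-proline, and the study asks what this amino acid changes in stem cells that stay in LIF. Each group has 2 biological replicates of 3 arrays each, and the 3 arrays were averaged, so that n is 2 per group. The labels do not say how the replicates were kept apart or what the letters a to c of their arrays stand for. The p-values measure only the spread between the replicate means, which may be technical. One cell line was used.

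Transcription in the nucleus is divided among 3 RNA polymerases. Polymerase I makes the large ribosomal RNA precursor, polymerase II makes messenger RNAs and polymerase III makes transfer RNAs, 5S ribosomal RNA and other short RNAs. The enzymes share a set of small subunits and do not find promoters by themselves. Polymerase I is placed by SL1, which joins the TATA-binding protein to its own TAFs. Polymerase II is placed by TFIID, another assembly of the TATA-binding protein with TAFs, and by TFIIA, TFIIB, TFIIE, TFIIF and TFIIH, and polymerase III by TFIIIA, TFIIIB and TFIIIC. Embryonic stem cells divide rapidly and contain large amounts of this machinery, and some TAFs have paralogues with roles in stem cells or germ cells.

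The upstream sequences of 4 members are shown first, and a link between them and the values below was not tested. Taf6l is the one member past the test's threshold. Taf13 and Polr3gl had the largest decreases measured among TAFs and among polymerase subunits. Taf10 had the largest increase measured and was chosen after its values were seen. Each sequence runs 5′ to 3′ over the 250 bases before the annotated start, from RefSeq's promoter table on build GRCm38.p6. Capitals mark matches on either strand to TATAAA (the TATA box), CACGTG (the E-box), GGGCGG (the GC box), CCAAT (the CCAAT box) or CGGAAG (a core bound by ETS factors).
Taf6l, chr19:8786317-8786566, minus strand: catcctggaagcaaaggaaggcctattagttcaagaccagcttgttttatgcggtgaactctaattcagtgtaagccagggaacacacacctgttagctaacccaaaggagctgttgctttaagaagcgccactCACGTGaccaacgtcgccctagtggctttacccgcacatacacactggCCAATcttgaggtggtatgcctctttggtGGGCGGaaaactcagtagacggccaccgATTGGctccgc
Taf13, chr3:108571449-108571698, plus strand: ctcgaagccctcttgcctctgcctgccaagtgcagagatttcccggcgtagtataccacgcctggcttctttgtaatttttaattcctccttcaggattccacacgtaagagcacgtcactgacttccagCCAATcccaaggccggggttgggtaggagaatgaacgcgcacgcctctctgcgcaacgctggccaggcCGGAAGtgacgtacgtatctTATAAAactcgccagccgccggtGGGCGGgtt
Polr3gl, chr3:96594182-96594431, minus strand: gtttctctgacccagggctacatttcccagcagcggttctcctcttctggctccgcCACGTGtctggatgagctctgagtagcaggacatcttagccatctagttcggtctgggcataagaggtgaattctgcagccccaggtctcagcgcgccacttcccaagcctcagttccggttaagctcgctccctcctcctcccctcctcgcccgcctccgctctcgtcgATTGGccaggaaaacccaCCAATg
Taf10, chr7:105744339-105744588, minus strand: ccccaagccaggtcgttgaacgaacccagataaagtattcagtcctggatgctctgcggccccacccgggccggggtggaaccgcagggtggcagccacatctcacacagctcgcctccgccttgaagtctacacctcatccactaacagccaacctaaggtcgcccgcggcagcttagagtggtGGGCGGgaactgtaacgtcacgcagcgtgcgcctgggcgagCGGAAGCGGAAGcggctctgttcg
The window of Taf6l holds an E-box, a GC box and 2 CCAAT boxes, and that of Polr3gl an E-box and 2 CCAAT boxes. Taf13 has a TATA box close to its start, and Taf10 has 2 adjoining CGGAAG matches. The start listed first was taken for each gene, and 62 of the 70 members were found in the table by gene ID. CGGAAG was in the windows of 26 of these 62 members (41.9%) and of 13.8% of the 27025 genes in the table. CACGTG was in 13 members (21.0%) and 6.05% of all genes, and GGGCGG in 34 members (54.8%) and 32.9% of all genes. TATAAA was in 10 members (16.1%) and 13.0% of all genes, and CCAAT in 20 members (32.3%) and 34.5% of all genes. The genes of the table were not matched to the members for signal, and a difference between these shares was not tested. Matches may share bases, and they describe letters and not bound sites.

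Most members measured lower after proline, by small amounts. Of the 70 log2 fold changes, 54 were below 0 and 16 above, with a median of -0.20, beside a median of -0.03 and 56.1% below 0 over all genes. Only 1 member passed limma's test at an adjusted p of 0.05: Taf6l, which fell 1.82-fold. No member (0 of 70) rose, although the largest increase, in Taf10, measured 1.40-fold, and 17 members had an unadjusted p under 0.05 (15 lower and 2 higher). Over all 18193 genes the test called 3.03% higher and 1.34% lower, and 22.1% had an unadjusted p under 0.05, so that 1 member called lower is a share of 1.43%, near that of all genes, and the 17 members are 24.3%. No member changed as much as 2-fold in the measured means, beside 6.93% of all genes.

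**Figure D1:**
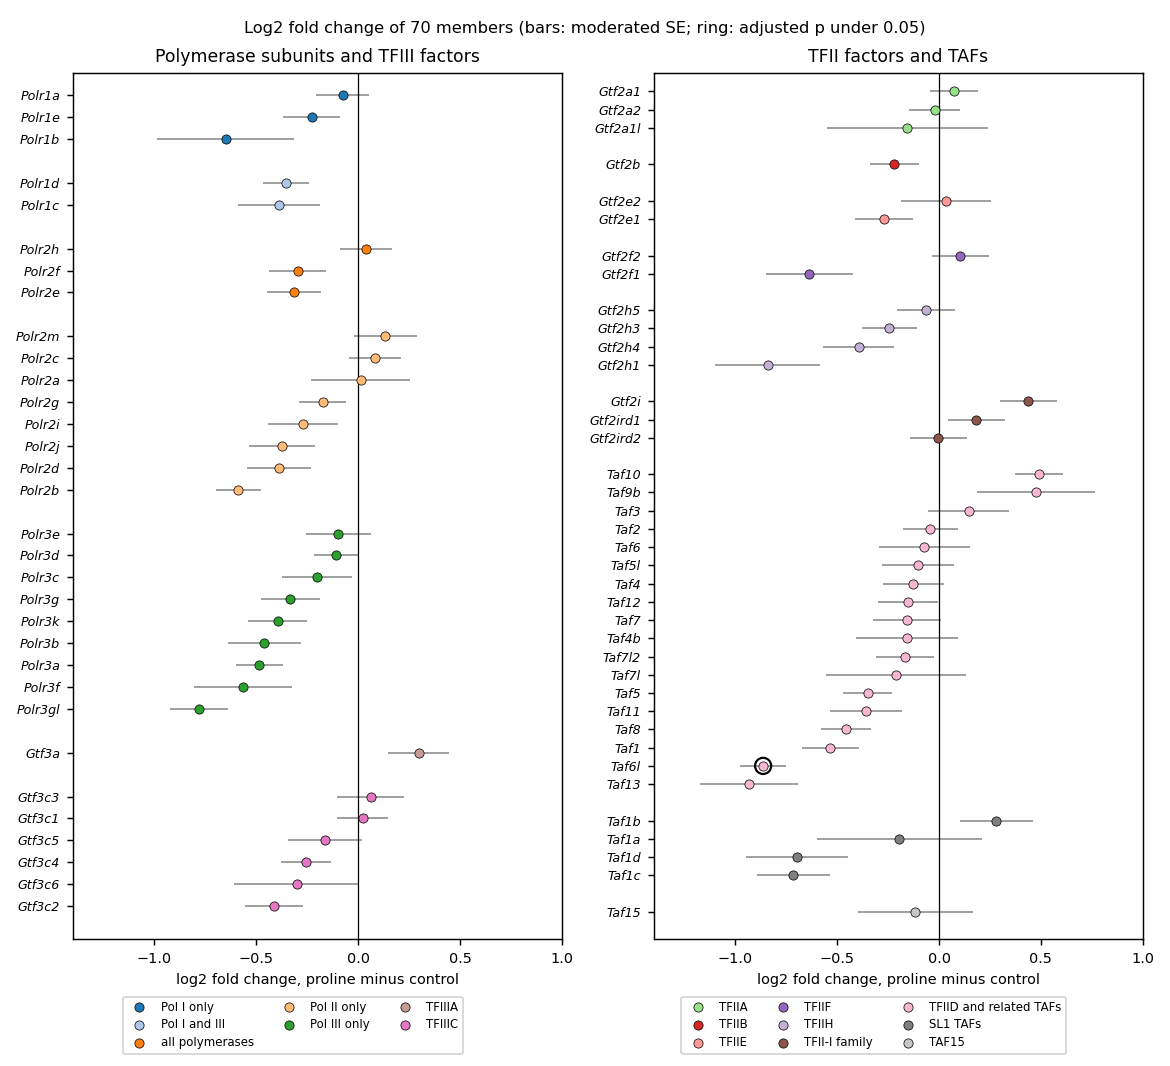
Each point is the log2 fold change of a member (proline minus control, horizontal axis), with limma's moderated standard error as the bar, and members are grouped by complex and coloured by it. Points lie left of 0 for 54 of 70 members, and the ring marks Taf6l, the one past an adjusted p of 0.05.

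The arrays were also compared by their order alone. In 18 members all 6 proline arrays lay below all 6 control arrays, and in 3 members all lay above, while the groups overlapped in 49. Over all genes 10.8% had proline arrays all below control and 13.8% all above. The 18 members are 25.7% of the list and the 3 are 4.29%. Arrays of one replicate were more alike (correlations of 0.996 to 0.998) than arrays of different replicates of a group (0.985 to 0.989), so that these are not 6 independent values. Most members are bright, and among the 7191 genes with a mean signal of at least 8, a level chosen after the values were seen, 52.6% measured below 0 with a median of -0.02, and 16.8% had all proline arrays below control. Of the 61 members at that level, 47 (77.0%) were below 0, with a median of -0.22, and 26.2% had all proline arrays below control.

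**Figure D2:**
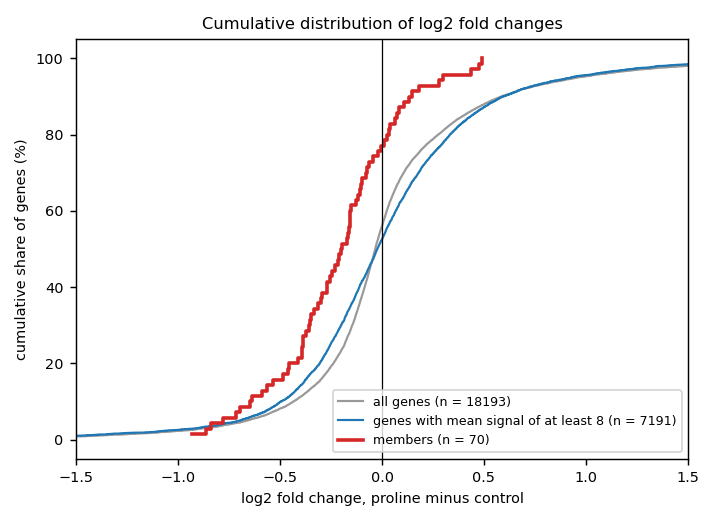
The curves give the cumulative share of genes (vertical axis, %) up to each log2 fold change of proline against control (horizontal axis) for all 18193 genes, the 7191 genes with a mean signal of at least 8, and the 70 members. The members' curve lies left of the others close to 0, with 77.1% of members below 0 against 56.1% of all genes and 52.6% of the genes at 8 or more. It starts at -0.93, the lowest member, while the curve of all genes starts at -6.12.

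The data bound the members' differences loosely. The 95% interval of limma, not adjusted for the number of genes, lay within a 2-fold change in either direction for 56 of the 70 members and within a 1.5-fold change for 22. It reached 2-fold for the other 14, which are Taf6l and 13 members that did not pass, among them Polr1b (-1.54 to 0.24), Taf1a (-1.26 to 0.88) and Gtf2a1l (-1.19 to 0.88). In cultures measured whole, fewer cells with a transcript and less RNA per cell cannot be told apart. The deposited arrays had been brought to nearly equal medians, so a change common to all transcripts would not be seen.

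Replicates differed in the same direction. The median of all members was -0.18 and -0.12 in proline replicate 1 against control replicates 1 and 2, and -0.32 and -0.21 in proline replicate 2. Between replicates of one group it was -0.10 in control 2 minus control 1, with 23 of 70 members above 0, and -0.15 in proline 2 minus proline 1, with 26 above 0. Over all genes these medians were -0.02 and -0.03. Array controls also differed between the replicates of each group. Beta-actin 5′ minus 3′ signal, a measure of RNA integrity and labelling, read -0.90 and -0.50 in controls 1 and 2 and -0.66 and -0.24 in proline 1 and 2, and log2 signal for 18S ribosomal RNA was 10.74 and 10.04 in the controls against 9.74 and 8.35 after proline. Their part in the members' shift was not tested.

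**Figure D3:**
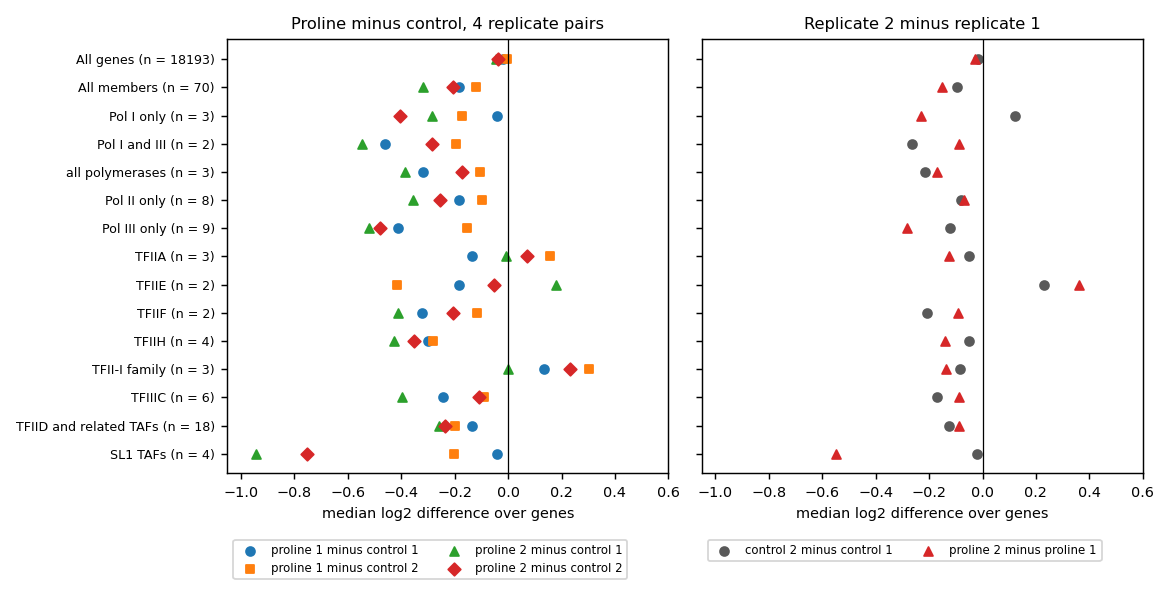
The left panel gives the median log2 difference over the members of each complex (horizontal axis) in the 4 proline minus control replicate pairs, and the right panel gives it for replicate 2 minus replicate 1 within each group. For all members the 4 pairs lie between -0.32 and -0.12 and the 2 within-group differences at -0.10 and -0.15, while all genes lie close to 0.

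Among polymerase I subunits, the 3 members measured below 0, and none passed. Polr1a, the largest subunit, read 10.16 and 10.24 in controls 1 and 2 and 10.23 and 10.02 in proline 1 and 2, with a log2 fold change of -0.08 ± 0.13 (moderated SE, adjusted p = 0.814). Polr1b, the second largest subunit, read 10.59 and 10.89 in controls and 10.55 and 9.63 after proline (-0.65 ± 0.34, adjusted p = 0.359). The low value of Polr1b is that of proline replicate 2 alone, and proline replicate 1 lay close to control replicate 1. Polr1e, whose product belongs to the heterodimer on the enzyme's flank, measured -0.23 ± 0.14 and its other probe set -0.22. Polr1a depends on the probe set: those with mean signals of 9.04 and 8.77 measured 0.48 and 0.23, above 0, and the median over its probe sets measured 0.33.

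The 3 other subunits of polymerase I measured here have older symbols on this platform and so fall outside the rule. Znrd1, which encodes the RNA-cleaving subunit now called Polr1h, read 11.32 and 11.27 in controls and 10.47 and 10.52 after proline and fell by 0.80 ± 0.11 on the log2 scale (adjusted p = 0.0405). The call was lost with the median over probe sets (0.0503) and with every probe set tested by itself (0.0660). Leaving out 1 of the 4 replicates took the call from every gene, and Znrd1 then measured -0.83 to -0.78. Cd3eap, the partner of Polr1e, measured -0.50 ± 0.25 (adjusted p = 0.343) and Twistnb, a stalk subunit, 0.06 ± 0.23 (adjusted p = 0.921).

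The SL1 TAFs, which place polymerase I on ribosomal DNA, had a median of -0.45 over 4 genes, and 0 of the 4 passed. It was -0.28 with the median over probe sets and -0.096 without proline replicate 2. Taf1c read 9.02 and 8.92 in controls and 8.46 and 8.04 after proline (-0.71 ± 0.18, adjusted p = 0.111), and the groups did not overlap in any array. Taf1d read 10.59 and 10.65 in controls and 10.26 and 9.58 after proline (-0.70 ± 0.25, adjusted p = 0.206), with proline arrays from 9.43 to 10.50 and control arrays from 10.46 to 10.97, so that they overlapped. Taf1a read 8.87 and 8.59 in controls but 9.12 and 7.96 after proline, the widest gap between proline replicates of any member (-0.19 ± 0.41). Taf1b measured above 0 (0.28 ± 0.18, adjusted p = 0.462). Within this complex proline replicate 2 set the median: it was -0.94 and -0.75 against the 2 controls, and -0.04 and -0.20 in proline replicate 1. The 7 probe sets of Taf1d disagreed, from -0.85 to 0.23, with 3 of them above 0. Ubtf, which opens ribosomal DNA for polymerase I and is no member, measured -0.69 ± 0.26 (adjusted p = 0.232), and its lowest replicate was again proline 2 (9.94, against 10.56 in proline 1 and 11.14 and 10.74 in controls).

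Subunits shared between enzymes measured slightly lower. Polr1c and Polr1d form the alpha-like pair of polymerases I and III. Polr1c measured -0.39 ± 0.20 (adjusted p = 0.357), and Polr1d read 11.59 and 11.51 in controls and 11.16 and 11.23 after proline (-0.35 ± 0.11, adjusted p = 0.172) with no overlap of arrays. For Polr1d 3 of 4 probe sets measured -0.43 to -0.31, while the other, of nearly equal signal (mean 11.35), measured 0.45. Of the subunits common to all 3 enzymes, Polr2e (-0.31 ± 0.13, adjusted p = 0.266) and Polr2f (-0.30 ± 0.14, adjusted p = 0.322) had all proline arrays below control, and Polr2h measured 0.04 ± 0.13 (adjusted p = 0.910). Over all genes 10.8% had all proline arrays below control.

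Polymerase II subunits split. The 8 members had a median of -0.22, 5 below 0 and 3 above, and 0 passed. Polr2b, the second largest subunit and the other wall of the active cleft, read 12.55 and 12.52 in controls and 11.94 and 11.97 after proline. The replicates of each group differed by 0.03, and the groups by -0.59 ± 0.11, with an interval of -0.88 to -0.30 (adjusted p = 0.0649). Fitted with an intensity trend, Polr2b was called (adjusted p = 0.0334). Polr2a, the largest subunit, whose tail carries the repeats that are phosphorylated during transcription, read 11.98 and 11.48 in controls and 11.95 and 11.53 after proline (0.01 ± 0.24, adjusted p = 0.988). Replicate 2 minus replicate 1 was -0.51 in the controls and -0.43 after proline, so the replicates of each group differed by more than the groups. The stalk subunit Polr2d measured -0.39 ± 0.16 (adjusted p = 0.250) and its partner Polr2g -0.17 ± 0.12 (adjusted p = 0.481). Polr2j measured -0.37 ± 0.16 (adjusted p = 0.278) and Polr2i, which helps proofreading, -0.27 ± 0.17 (adjusted p = 0.457). Polr2b, Polr2d, Polr2g and Polr2j had all proline arrays below control. They are 4 of 8, beside 10.8% of all genes and 16.8% of genes with a mean signal of at least 8. Polr2c measured 0.08 ± 0.13, and Polr2m, whose product Gdown1 inhibits the enzyme rather than belonging to its core, 0.13 ± 0.16.

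All 9 polymerase III subunits measured below 0 in the probe set used, with a median of -0.39, and 0 passed. Over all genes 56.1% measured below 0. Of the 9, 3 had an unadjusted p under 0.05 in limma (33.3%), beside 22.1% of all genes. Polr3gl had the largest difference: it read 7.48 and 7.36 in controls and 6.76 and 6.51 after proline (-0.78 ± 0.14, 1.72-fold lower, adjusted p = 0.0615). The 6 proline arrays ran from 6.17 to 6.86 and the control arrays from 7.30 to 7.51. Its paralogue Polr3g, which takes the same place in the initiation subcomplex and is known for high expression in pluripotent cells, read 10.12 and 9.98 in controls and 9.59 and 9.84 after proline (-0.33 ± 0.14, adjusted p = 0.276). The difference between the paralogues was not tested, and their signals come from different probe sets and cannot be ranked.

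The other polymerase III subunits measured between -0.56 and -0.10. Polr3a, the catalytic largest subunit, read 9.29 and 9.33 in controls and 8.88 and 8.77 after proline (-0.49 ± 0.12, adjusted p = 0.1001), and its other probe sets measured -0.62 and -0.60. Polr3b, the second largest, measured -0.46 ± 0.18 (adjusted p = 0.237) and had probe sets from -0.46 to -0.28. Both had all proline arrays below control, as had 10.8% of all genes. Polr3f, of the same initiation subcomplex as Polr3g, measured -0.56 ± 0.24 (adjusted p = 0.274), and all 5 of its probe sets were below 0 (-0.85 to -0.25). Polr3k, the RNA-cleaving subunit, measured -0.39 ± 0.14 (adjusted p = 0.213) and all 6 of its probe sets were below 0. Polr3c, Polr3d and Polr3e measured -0.20, -0.11 and -0.10. The other probe set of Polr3c, with a mean signal of 7.73, measured 0.06, above 0. Median differences of the enzymes were thus -0.23 over the 3 polymerase I subunits, -0.22 over the 8 of polymerase II and -0.39 over the 9 of polymerase III. The 4 replicate pairs ran from -0.41 to -0.04, from -0.36 to -0.10 and from -0.52 to -0.16, and these ranges overlap. Without proline replicate 2 the medians were -0.11, -0.12 and -0.29. A difference between the polymerases was not tested.

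**Figure D4:**
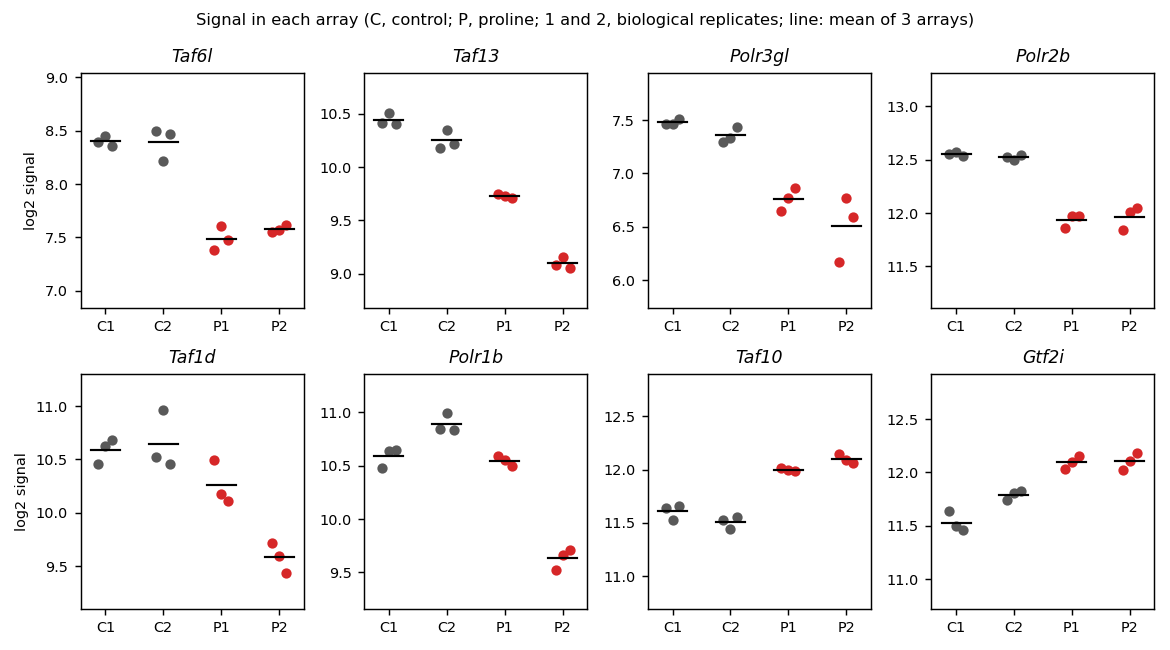
Each point is the log2 signal (vertical axis) of 1 array, with the 3 arrays of each biological replicate side by side (C1 and C2, control, grey; P1 and P2, proline, red) and their mean as a line, on axes of equal span. The groups stand apart in Taf6l, Taf13, Polr3gl, Polr2b, Taf10 and Gtf2i, while in Taf1d the arrays overlap and in Polr1b only proline replicate 2 lies below the controls.

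The polymerase III factors did not share a direction. TFIIIC, which binds the internal promoters of transfer RNA genes, had 4 of 6 members below 0, with a median of -0.21. That median was -0.075 with the median over probe sets, -0.048 without control replicate 1, -0.35 without control replicate 2 and -0.076 without proline replicate 2. Gtf3c2 measured -0.41 ± 0.14 (adjusted p = 0.194), and its 5 probe sets were all below 0 (-0.97 to -0.39). Gtf3c4 measured -0.26 ± 0.12, Gtf3c6 -0.30 ± 0.31 and Gtf3c5 -0.16 ± 0.18. Dimmer probe sets of Gtf3c4 (mean 6.91) and Gtf3c6 (mean 5.73) measured 0.16 and 0.10, above 0. Gtf3c1 (0.02 ± 0.13) and Gtf3c3 (0.06 ± 0.16) lay near 0, and 1 dim probe set of Gtf3c1, with a mean signal of 5.36, measured 0.63. Gtf3a, the zinc finger protein TFIIIA that recognises the 5S ribosomal RNA gene, read 10.30 and 10.03 in controls and 10.39 and 10.53 after proline (0.30 ± 0.15, adjusted p = 0.344). It is 1 of the 3 members whose 6 proline arrays, from 10.36 to 10.56, all lay above the controls, from 9.98 to 10.31. Of the TFIIIB genes outside the rule, Brf1 measured -0.19 ± 0.11, Brf2 -0.08 ± 0.14 and Bdp1 -0.10 ± 0.15.

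Of the 15 members with Gtf2 symbols, 10 measured below 0, with a median of -0.06, and 0 passed. They comprise TFIIA, TFIIB, TFIIE, TFIIF and TFIIH of polymerase II and the 3 genes of the TFII-I family. In that family 2 genes measured above 0, with a median of 0.18. The largest difference was in Gtf2h1, a core subunit of TFIIH, the factor that opens promoter DNA and serves in excision repair. Gtf2h1 read 10.80 and 10.55 in controls and 10.17 and 9.50 after proline (-0.84 ± 0.26, adjusted p = 0.158), with no overlap of arrays. The other TFIIH members measured -0.39 ± 0.18 (Gtf2h4), -0.24 ± 0.13 (Gtf2h3) and -0.06 ± 0.14 (Gtf2h5), so that the 4 measured were all below 0. Of the remaining TFIIH genes, which are no members, the helicases Ercc2 and Ercc3 measured -0.24 ± 0.11 and -0.30 ± 0.11, and the kinase module genes Cdk7, Ccnh and Mnat1 -0.29, 0.02 and 0.10. The 2 chains of TFIIF, which escorts the polymerase to the promoter, measured in opposite directions. Gtf2f1 read 10.71 and 10.35 in controls and 10.11 and 9.68 after proline (-0.64 ± 0.21, adjusted p = 0.188) and Gtf2f2 measured 0.11 ± 0.14 (adjusted p = 0.748).

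TFIIA, which steadies the TATA-binding protein on DNA, lay near 0: Gtf2a1 measured 0.07 ± 0.12 and Gtf2a2 -0.02 ± 0.12. With the median over probe sets Gtf2a1 measured -0.15. The germ cell form Gtf2a1l measured -0.15 ± 0.39. Its group means were both below 5.36, the 40th percentile over probe sets, while control replicate 1 (5.81) and proline replicate 1 (5.43) lay above it. Gtf2b, the TFIIB gene, measured -0.22 ± 0.12 (adjusted p = 0.397). In TFIIE, which recruits TFIIH, Gtf2e1 measured -0.27 ± 0.14 and Gtf2e2 0.03 ± 0.22. Gtf2i, a factor of the initiator element that also answers to signalling at the membrane, read 11.53 and 11.79 in controls and 12.09 and 12.10 after proline (0.44 ± 0.14, 1.36-fold higher, adjusted p = 0.170). All proline arrays of Gtf2i lay above the controls, and its 4 probe sets measured 0.21 to 0.75. The related Gtf2ird1 and Gtf2ird2 measured 0.18 ± 0.14 and -0.003 ± 0.14. A dimmer probe set of Gtf2ird1 (mean 8.13) measured -0.06.

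Among TFIID subunits and their paralogues, 15 of 18 measured below 0, with a median of -0.16, and 1 fell. Taf6l encodes a TAF6-like protein of the SAGA co-activator, a histone acetyltransferase complex, and is known to be needed for self-renewal of mouse embryonic stem cells. It read 8.40 and 8.39 in controls and 7.49 and 7.58 after proline (-0.86 ± 0.11, adjusted p = 0.0375). Its 6 control arrays ran from 8.22 to 8.50 and its proline arrays from 7.38 to 7.62. The 1 probe set of Taf6l passed under quantile normalization, median centring and the replicate block. It did not pass with an intensity trend (adjusted p = 0.0517) or with every probe set tested by itself (0.0622). Leaving out 1 of the 4 replicates took the call from every gene, so that setting does not speak to Taf6l alone. The log2 fold change of Taf6l then stayed between -0.91 and -0.82. Taf6, the TFIID counterpart, read 9.81 and 9.25 in controls and 9.56 and 9.36 after proline (-0.07 ± 0.22, adjusted p = 0.905), and Taf5l, the other SAGA paralogue, measured -0.10 ± 0.18 (adjusted p = 0.811). Whether Taf6l differed from Taf6 or Taf5l was not tested.

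Of the other TAFs, Taf13 had the largest difference of any member. It encodes a histone-fold partner of TAF11 and read 10.44 and 10.25 in controls and 9.73 and 9.10 after proline (-0.93 ± 0.24, 1.91-fold lower, adjusted p = 0.118). Its proline arrays (9.06 to 9.75) lay below all control arrays (10.18 to 10.51), while its proline replicates differed by more than its controls. Taf11 itself measured -0.36 ± 0.18 (adjusted p = 0.339). Taf1, the largest subunit, which carries bromodomains, read 9.65 and 9.41 in controls and 9.06 and 8.93 after proline (-0.53 ± 0.14, adjusted p = 0.120), and its dim probe set (mean 5.71) measured 0.01. The scaffold gene Taf5 measured -0.35 ± 0.12 (adjusted p = 0.193) and Taf8 -0.46 ± 0.12 (adjusted p = 0.125). Taf1, Taf5, Taf6l, Taf8 and Taf13 are the TAFs of this group with all proline arrays below control. They are 5 of 18, beside 10.8% of all genes and 16.8% of genes with a mean signal of at least 8.

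Taf10 stood on the other side. It encodes a subunit that TFIID and SAGA share and that pairs with TAF8 in TFIID, and it read 11.61 and 11.51 in controls and 12.10 in proline replicate 2, 0.10 above proline replicate 1 (0.49 ± 0.12, adjusted p = 0.104). Its proline arrays (11.98 to 12.14) lay above all control arrays (11.45 to 11.66), and a dimmer probe set (mean 6.48) measured 0.06. Taf9b measured 0.48 ± 0.29 (adjusted p = 0.437) at signals under the 40th percentile in both groups. Taf3, which reads a histone mark of active promoters, measured 0.15 ± 0.20, and Taf2 and Taf12 measured -0.04 ± 0.13 and -0.15 ± 0.15.

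The paralogues tied to germ cells showed no clear difference. Taf4b read 10.14 and 9.82 in controls and 10.12 and 9.52 after proline (-0.16 ± 0.25, adjusted p = 0.797), and Taf4 measured -0.13 ± 0.15 (adjusted p = 0.716). Taf7l, whose signals lay between 5.16 and 6.05, measured -0.21 ± 0.34 (interval -1.11 to 0.70), and Taf7 measured -0.16 ± 0.17 (-0.59 to 0.28). Dimmer probe sets of Taf7, with mean signals of 9.31 and 5.07, measured -0.40 and -0.26. Taf7l2 read under the 40th percentile in both groups. Taf15, an RNA-binding protein of the FET family that was first found with TFIID, measured -0.12 ± 0.28.

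**Figure D5:**
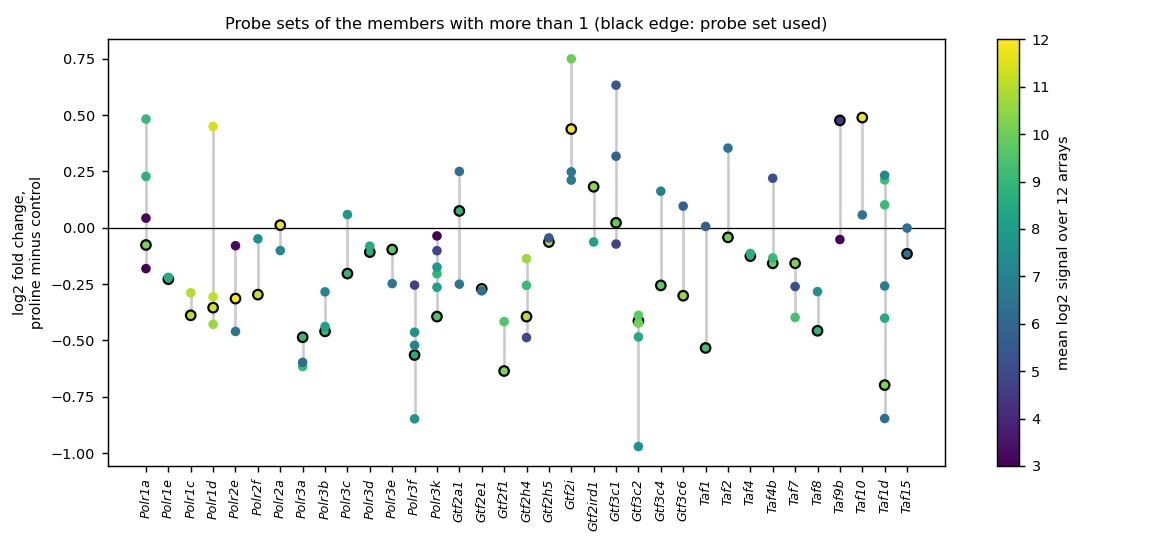
Each point is the log2 fold change (vertical axis) of 1 probe set of a member that has more than 1, coloured by its mean log2 signal over the 12 arrays, with a black edge on the probe set used. Of the 35 such members, 21 have all probe sets on one side of 0, and 14 do not, among them Polr1a, Polr1d, Gtf3c1, Taf1 and Taf1d.

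Other genes of the transcription machinery mostly measured below 0 too. A list of 51 symbols beside the rule, drawn from the TATA-binding protein and its relatives, polymerase I subunits and factors under other names, TFIIIB, SNAPc, the TFIIH kinase and helicases, elongation factors, mitochondrial transcription and polymerase assembly, had 46 measured genes, 33 below 0 and 13 above, with a median of -0.20. Over all genes 56.1% were below 0, with a median of -0.03. Znrd1 and Ccnt2 fell, 2 of 46 where 1.34% of all genes were called lower, and 44 did not pass. The difference between this list and the members was not tested. Ccnt2, a cyclin of the elongation kinase P-TEFb, fell by 0.87 ± 0.13 on the log2 scale (adjusted p = 0.0452). The median over its 5 probe sets was -0.06 (adjusted p = 0.889), and the call was lost under quantile normalization (0.0514) and with every probe set by itself (0.0728). Leaving out 1 replicate took the call from every gene, and Ccnt2 then measured -0.98 to -0.76. Tbp, the TATA-binding protein itself, read 9.34 and 9.47 in controls and 9.06 and 8.93 after proline (-0.41 ± 0.12, adjusted p = 0.157). Snapc1 and Snapc4, of the complex for small nuclear RNA genes, measured -0.64 ± 0.11 (adjusted p = 0.0584) and -0.79 ± 0.21 (adjusted p = 0.118). Ssu72, a phosphatase of the polymerase II tail, measured 0.66 ± 0.15 (adjusted p = 0.0975).

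The labelled cell type was checked on its markers. All 8 pluripotency genes listed read above the 40th percentile in both groups. Their list mean was 12.62 and 12.68 in controls and 12.12 and 12.14 after proline, and Zfp42 and Esrrb fell. Lin28a, on the same list, measured higher, with 11.51 and 11.58 in controls and 12.21 and 12.22 after proline (0.67 on the log2 scale, adjusted p = 0.0530). Fibroblast markers, for feeder cells, had list means of 5.77, 5.40, 5.37 and 5.89 in controls 1 and 2 and proline 1 and 2, with 3 of 8 (Col3a1, Postn and Lum) under the 40th percentile in both groups and 0 past the threshold. Trophoblast markers had list means of 6.48 and 7.31 in controls and 7.02 and 7.69 after proline, with 1 of 6 (Elf5) under that percentile. Among them Krt8, a keratin of simple epithelia, read 7.17 and 10.40 in controls and 9.71 and 11.97 after proline, with wide gaps between the replicates of each group (2.06 higher on the log2 scale, adjusted p = 0.459). Extraembryonic endoderm markers had means of 4.99 to 5.17 (3 of 6 under it, Sox17, Sox7 and Afp) and neural markers 6.08 and 6.29 in controls and 6.66 and 6.52 after proline (2 of 6, Sox1 and Neurog2), of which Nes rose and Tubb3 fell. Their part in the members' values was not tested.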

How the data were processed

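The values are log2 signals that the authors deposited for 45101 probe sets on 12 Affymetrix arrays. MAS5 and RMA are named in the submitters' processing notes, which do not say which of them made the table. Array medians ran from 5.99 to 6.03, and single values from 2.10 to 14.8. No detection calls were used, and the small number of replicates limits precision.

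Genes were named through the platform's annotation, and among the 34945 probe sets with 1 symbol the one of highest mean stood for its gene. After averaging the 3 arrays of each replicate, limma 3.58.1 (R 4.3.3; lmFit, eBayes, two-sided) was fitted to the 4 means over all 18193 genes, dim ones included, with Benjamini-Hochberg adjustment and a threshold of 0.05. Residual degrees of freedom were 2, and the prior added 2.60. With 2 against 2, exact permutation reaches p = 0.333 at the lowest.

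The members and lists were chosen with earlier results of these data known. Named genes are the members past the threshold, the 3 largest differences in each complex, the large subunits, paralogue pairs, members whose probe sets differ in sign with 1 of them past 0.5, and pathway genes past the threshold. Other members and pathway genes given with values, Taf8 and Taf10 among them, the motifs and the level of 8 were chosen after values were seen. The settings varied were normalization (quantile, or arrays centred on their medians), the filter on dim genes (40th percentile), the probe set of a gene, a random block for 12 arrays, a replicate block, an intensity trend, the threshold (0.10) and each replicate left out. Plots were drawn with matplotlib 3.10.9.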

Additional observations from a re-analysis of the deposited data

Results flagged for a closer look

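Of 102 sets of 6 arrays (51 named members in each group), 1 had an array far from the others. Control array 1a of Taf1c read 9.14, and the other 5 control arrays read 8.90 to 8.97. Chance passes about 1 in 20 sets of independent values, and arrays of one replicate are not independent, so that rate need not hold here.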

How the results depend on the processing

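Under quantile normalization and median centring all 51 named members kept their direction and their side of the threshold. The count of 1 member called lower was 6 with the replicate block, 17 with 12 arrays in a random block (and 2 higher), 3 at an adjusted p of 0.10, and 0 with every probe set by itself and without any 1 replicate. With the replicate block Polr3gl (adjusted p = 0.0287), Gtf2f1 (0.0431), Gtf2h1 (0.0404), Taf13 (0.0328) and Taf1c (0.0466) joined Taf6l; the replicate numbers are not stated to pair samples. Genes called higher and lower were 233 and 118 with the median over probe sets, 2318 and 1669 with the random block, 1282 and 757 with the replicate block, 1174 and 626 at 0.10, 128 and 59 probe sets by themselves, and 0 and 0 without any 1 replicate, when 2766 to 3676 genes had an unadjusted p under 0.05 in limma. Without 1 replicate the lone sample is assumed to vary like the others. Medians then ran from -0.31 to -0.15 for all members, -0.046 to 0.12 for TFIIA, -0.39 to -0.25 for TFIIH, -0.35 to -0.048 for TFIIIC, -0.31 to -0.14 for TFIID and related TAFs, -0.85 to -0.096 for the SL1 TAFs, -0.34 to -0.11 for polymerase I, -0.32 to -0.12 for polymerase II, -0.54 to -0.29 for polymerase III, -0.50 to -0.24 for the subunits of I and III, -0.40 to -0.19 for those of all 3, -0.37 to -0.16 for TFIIF, -0.30 to 0.062 for TFIIE and 0.066 to 0.30 for the TFII-I family. With the median over probe sets TFIIH measured -0.22, TFIIIC -0.075, the SL1 TAFs -0.28, polymerase III -0.33, the subunits of I and III -0.23, those of all 3 -0.17, TFIIA -0.15 and the TFII-I family 0.059, and all members -0.17.

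The median over probe sets turned the sign of Polr1a (0.33), Polr2a (-0.045) and Gtf2a1 (-0.15), and leaving out 1 replicate that of 16 named members with small differences: Polr1a (-0.18 to 0.028), Polr2h (-0.049 to 0.13), Polr2a (-0.24 to 0.27), Gtf2a1l (-0.66 to 0.35), Gtf2a2 (-0.11 to 0.066), Gtf2e2 (-0.20 to 0.27), Gtf2f2 (-0.022 to 0.23), Gtf2ird2 (-0.13 to 0.13), Gtf3c1 (-0.057 to 0.10), Gtf3c6 (-0.65 to 0.044), Taf4 (-0.28 to 0.028), Taf4b (-0.46 to 0.14), Taf5l (-0.30 to 0.090), Taf6 (-0.35 to 0.21), Taf7l (-0.63 to 0.21) and Taf15 (-0.42 to 0.19). The cause was not tested. Low signals limit Gtf2a1l, Taf7l2 and Taf9b.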
